A study of Mus musculus with 6 samples.

Results

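The EGF receptor (ErbB) family was followed in cultured satellite cells (SCs), the stem cells of skeletal muscle, through 10 genes. They comprised 3 receptors (*Egfr*, *Erbb2*, *Erbb3*), 3 ligands (*Hbegf*, *Areg*, *Ereg*) and 4 genes whose products link receptors to Ras or to receptor traffic (*Shc1*, *Grb2*, *Sos1*, *Arrb2*). The genes were selected on their names from the 55416 genes of the deposited table, and 0 of the names occurred on more than 1 row. The choice was made with earlier results of these data known. *Egfr*, *Grb2* and *Arrb2* had already stood among the genes of the MAPK pathway with the lowest unadjusted p-values in the same comparison of genotypes, so their differences between genotypes are given below as a description.

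RNA was sequenced from WT SCs (3 libraries) and *Ltf*-KO SCs (3 libraries). *Ltf* encodes lactoferrin, a secreted iron-binding glycoprotein, and the *Ltf*-KO mice carried a CRISPR-Cas9 deletion of several *Ltf* exons, made in C57/BL6N zygotes and present in all tissues. SCs of adult hind leg muscle are described as sorted Sca1-/CD11b-/CD34+/α7-integrin+ cells. The stains listed beside this gate are for CD31, CD45, Sca1 and α7-integrin, so CD11b and CD34 are not among them. Sorted cells were collected in medium with fetal bovine serum, chick embryo extract and basic FGF. They were then grown for 4 days on Matrigel with no treatment. The medium during growth is not named separately, so whether all 6 libraries were made under these growth factors is not stated. The sources do not say whether the replicates of a genotype were separate animals or cultures, and p-values measure the spread between these libraries, which may be technical.

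ErbB receptors are tyrosine kinases that work in pairs. A ligand such as HB-EGF or amphiregulin is made as a membrane protein, is cut off by a metalloprotease and brings receptors together, which then phosphorylate each other's tails. GRB2 docks on these tails directly or through SHC1 and carries SOS1, which loads Ras with GTP and starts the RAF-MEK-ERK cascade. In muscle, this family is best known from myoblast growth and from the neuregulin signals between nerve, Schwann cell and muscle.

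To show what lies at the start of a ligand gene and a receptor gene of the family, the 250 bases before the transcription start of *Areg* and *Egfr* are printed 5′ to 3′, from RefSeq on GRCm38.p6. The *Areg* window is chr5:91139349-91139598 on the plus strand and the *Egfr* window is chr11:16751953-16752202 on the plus strand. Capitals mark matches, on either strand, to 4 short motifs: the cAMP response element TGACGTCA, the TATA box TATAAA, the GC box GGGCGG and the AP-1 site TGANTCA.
Areg: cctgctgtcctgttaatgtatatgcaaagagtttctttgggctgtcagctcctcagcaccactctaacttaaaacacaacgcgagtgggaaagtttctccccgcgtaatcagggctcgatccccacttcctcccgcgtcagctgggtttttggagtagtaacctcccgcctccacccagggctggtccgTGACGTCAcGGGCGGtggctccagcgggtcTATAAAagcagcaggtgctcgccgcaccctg
Egfr: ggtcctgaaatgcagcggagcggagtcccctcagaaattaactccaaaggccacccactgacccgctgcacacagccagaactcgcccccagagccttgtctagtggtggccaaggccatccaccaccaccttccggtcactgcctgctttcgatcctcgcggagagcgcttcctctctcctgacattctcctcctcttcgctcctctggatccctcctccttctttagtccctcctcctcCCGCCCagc
The *Areg* window held a cAMP response element whose first base lay 61 bases before the start, a GC box at 52 bases and a TATA box at 31 bases, with no overlap between them. The *Egfr* window held 1 GC box, 9 bases before the start, and no match to the other 3 motifs. Of all 32817 promoter windows of this length, 1.55% held the cAMP response element, 12.4% the TATA box, 32.7% the GC box and 6.75% the AP-1 site. Windows of 6 of the 10 genes were examined gene by gene (*Egfr*, *Erbb2*, *Areg*, *Shc1*, *Grb2* and *Sos1*). Among their 8 windows only that of *Areg* held the cAMP response element. *Erbb3*, *Hbegf*, *Arrb2* and *Ereg* were not examined in this way, so nothing is said of their motifs. A match is a string of letters and was not tested for binding.

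Values are TPM, a length-corrected share of the transcripts of a library, so levels can be set side by side between genes while the depth behind a value is unknown. The libraries summed to 993650 to 994356 TPM and held 12828 to 12951 genes at 1 TPM or more. *Ltf* itself was listed at 0.12, 0.02 and 0.02 TPM in WT replicates 1 to 3 and at 0.02, 0.03 and 0 TPM in *Ltf*-KO replicates 1 to 3, so it was near 0 in both genotypes and did not separate them. All 10 markers of SCs and myoblasts were above 1 TPM, with *Myod1*, the myogenic determination factor, at 747.62 to 815.74 TPM and *Pax7*, the SC transcription factor, at 36.62 to 43.3 TPM. Summed TPM of the markers of other cell types was 5.68 to 14.22 in WT and 5.68 to 13.31 in *Ltf*-KO for endothelial cells, 41.55 to 43.53 and 40.75 to 49.68 for smooth muscle and pericytes, and 0.62 to 1.21 and 0.47 to 2.15 for epithelium. The smooth muscle and pericyte sum was mostly *Cspg4* (30.76 to 41.07 TPM) and *Notch3* (5.95 to 9.07 TPM). Its other markers, *Myh11*, *Rgs5* and *Kcnj8*, had means under 1 TPM, so the sum does not give the share of these cells. The genotypes were compared on log2(TPM + 1) by limma over 12956 genes whose mean reached 1 TPM, a filter that all 10 genes passed. The added 1 shrinks the fold change of genes with low values. Of these genes 0 (0%) had a limma adjusted p under 0.05, 1.78% had an unadjusted p under 0.05 and were lower in *Ltf*-KO, and 2.01% had one and were higher. The lower genes made up 46.9% of the 490 at an unadjusted p under 0.05, against 59.4% with quantile normalization and 57.6% with median-of-ratios scaling.

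None of the 10 genes passed the test, with a limma adjusted p of 0.999 for each. *Grb2* and *Arrb2* were lower and *Egfr* was higher in every *Ltf*-KO library than in any WT library, and these 3 were also the ones at an unadjusted p under 0.05. Over all tested genes, the libraries of the genotypes did not overlap with *Ltf*-KO lower for 3.73% and with *Ltf*-KO higher for 4.73%. Since the same comparison had a part in choosing these genes, nothing is read from their number. For the other 7 genes the libraries of the genotypes overlapped.

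**Figure D1:**
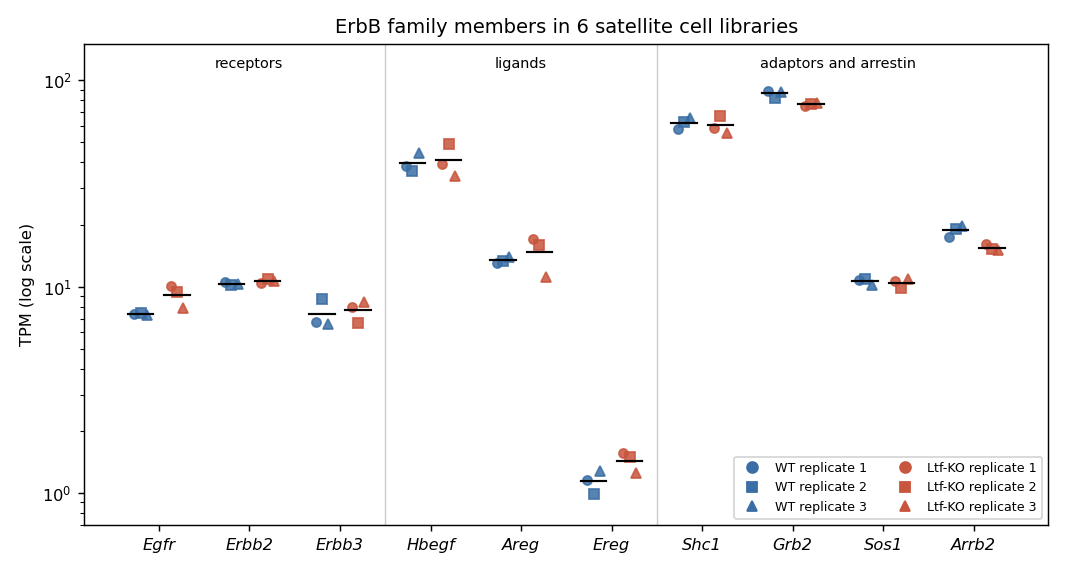
TPM of the 10 genes on a log axis, with 1 point per library, WT in blue on the left of each gene and *Ltf*-KO in red on the right, and a bar at the mean of 3 libraries. *Grb2* stood highest with a mean of 81.5 TPM and *Ereg* lowest with 1.29 TPM, and the genotypes were apart only for *Egfr*, *Grb2* and *Arrb2*.

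The order of mean levels over the 6 libraries was *Grb2* (81.5 TPM), *Shc1* (61.3 TPM), *Hbegf* (40.4 TPM), *Arrb2* (17.1 TPM), *Areg* (14.1 TPM), *Sos1* (10.5 TPM), *Erbb2* (10.5 TPM), *Egfr* (8.24 TPM), *Erbb3* (7.53 TPM) and *Ereg* (1.29 TPM). Neighbours in this order had overlapping ranges for 3 pairs, *Arrb2* and *Areg*, *Sos1* and *Erbb2*, and *Egfr* and *Erbb3*, and each of these pairs kept its order in 4 of 6 libraries. The other neighbours did not overlap.

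*Erbb2* varied little in either genotype. It encodes the partner receptor that binds no known ligand itself. This gene was at 10.53, 10.2 and 10.33 TPM in WT and at 10.37, 10.86 and 10.63 TPM in *Ltf*-KO, with coefficients of variation of 1.61% and 2.31% where the median for genes of 10 to 100 TPM was 5.58% in WT and 5.85% in *Ltf*-KO. The log2 fold change, *Ltf*-KO minus WT, was 0.033 (95% confidence interval -0.10 to 0.17). In the GENCODE M21 annotation some exon bases of *Erbb2* are shared with *Mien1* on the opposite strand. *Mien1* was at 41.86, 38.85 and 46.35 TPM in WT and at 48.8, 52.14 and 46.85 TPM in *Ltf*-KO, higher in every *Ltf*-KO library (log2 difference 0.22, limma adjusted p = 0.999). The strandedness of the counting is not given in the sources used here, so reads of both genes may not have been told apart, and the part of *Mien1* in the *Erbb2* values was not tested.

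*Egfr*, the receptor of EGF, HB-EGF, amphiregulin and epiregulin, was at 7.37, 7.49 and 7.27 TPM in WT, a mean of 7.38 ± 0.110 TPM (SD, n = 3). It was at 10.04, 9.41 and 7.86 TPM in *Ltf*-KO, a mean of 9.10 ± 1.12 TPM (SD, n = 3). All *Ltf*-KO libraries were above all WT libraries, but *Ltf*-KO replicate 3 lay only 0.37 TPM above the highest WT library and the spread was much wider in *Ltf*-KO, with a coefficient of variation of 12.3% against 1.49%. *Ltf*-KO exceeded WT by 0.26 in log2 (standard error 0.095, limma adjusted p = 0.999). This difference ranged from 0.20 without *Ltf*-KO replicate 1 to 0.36 without *Ltf*-KO replicate 3. In GENCODE M21 on GRCm38 *Egfr* (ENSMUSG00000020122) spans 16752203 to 16918158 of chromosome 11, plus strand.

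Markers of fibroblasts and fibro-adipogenic cells, which also express *Egfr*, went with these values in part. The summed TPM of 6 such markers (*Pdgfra*, *Dcn*, *Lum*, *Ly6a*, *Col1a1*, *Thy1*) was 10.98, 13.25 and 16.61 in WT and 19.97, 22.73 and 14.46 in *Ltf*-KO, and all but *Lum* had a mean of 1 TPM or more. One of them, *Ly6a*, encodes Sca1, on which the sort excluded cells. The 2 libraries with the highest sums, *Ltf*-KO replicates 1 and 2, were also the 2 highest for *Egfr*, while WT replicate 3 had a higher sum than *Ltf*-KO replicate 3 and the lowest *Egfr*. *Pdgfra*, *Dcn*, *Lum* and *Col1a1* were each highest in *Ltf*-KO replicates 1 and 2, but *Thy1* and *Ly6a* were not. *Ly6a* was at 1.33, 2.32 and 2.01 TPM in WT and at 1.66, 1.76 and 3.21 TPM in *Ltf*-KO. *Thy1* was higher in WT replicate 1 (2.77 TPM) than in *Ltf*-KO replicate 2 (2.55 TPM). Of the 6 markers 5 were tested, and all 5 had a log2 fold change above 0, as did 7220 of all 12956 tested genes. Of the 5 markers 0 had an unadjusted p under 0.05. Their part in the *Egfr* result was not tested, and in bulk RNA a change in the share of a cell type and a change of RNA per cell cannot be told apart.

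**Figure D2:**
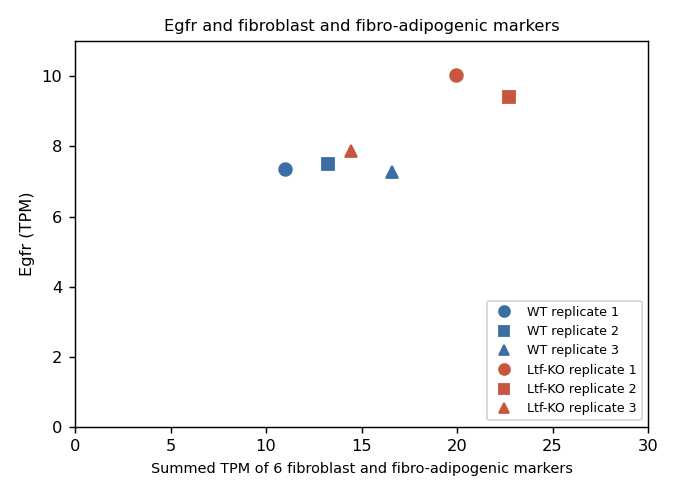
*Egfr* TPM against the summed TPM of 6 fibroblast and fibro-adipogenic markers, with 1 point per library, WT in blue and *Ltf*-KO in red. *Ltf*-KO replicates 1 and 2 had the highest sums, 19.97 and 22.73 TPM, and the highest *Egfr*, while WT replicate 3, with the third highest sum, had the lowest *Egfr*.

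*Erbb3*, the neuregulin receptor whose own kinase is weak and which signals through *Erbb2*, was at 6.71, 8.7 and 6.62 TPM in WT and at 8, 6.68 and 8.45 TPM in *Ltf*-KO. These values fell into an upper and a lower band that crossed the genotypes, with WT replicate 2 and *Ltf*-KO replicates 1 and 3 above and the other 3 libraries, all between 6.62 and 6.71 TPM, below. The same 3 libraries were the 3 highest in 8.01% of all tested genes, and the bands were picked after the values were seen. For *Erbb3* the log2 fold change was 0.066 (95% confidence interval -0.24 to 0.37).

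The fourth receptor gene, *Erbb4*, was at 0 to 0.12 TPM. Of the summed TPM of the 4 receptors, *Erbb2* held 41.3 ± 2.41% (SD, n = 3) in WT and 38.7 ± 2.08% (SD, n = 3) in *Ltf*-KO, and *Erbb3* held 29.1 ± 3.22% and 28.1 ± 3.29%. The share of *Egfr* was 29.92%, 28.29% and 29.99% in WT and 35.2%, 34.9% and 29.2% in *Ltf*-KO. *Ltf*-KO replicate 3 thus lay among the WT libraries for this share. The summed receptor level was 24.6, 26.5 and 24.2 TPM in WT and 28.53, 26.95 and 26.94 TPM in *Ltf*-KO.

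*Hbegf*, which encodes heparin-binding EGF-like growth factor, was the ligand with the highest level in every library. It was at 38.33, 36.51 and 44.49 TPM in WT, a mean of 39.8 ± 4.18 TPM (SD, n = 3), and at 39.4, 49.37 and 34.37 TPM in *Ltf*-KO, a mean of 41.0 ± 7.63 TPM (SD, n = 3). *Ltf*-KO replicates held both the highest and the lowest value, and the log2 fold change of 0.034 had a 95% confidence interval from -0.30 to 0.37. The sign turned when *Ltf*-KO replicate 2 was dropped (-0.10), and also when WT replicate 2 was (-0.024).

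*Areg*, which encodes amphiregulin, a ligand of EGFR, was at 12.95, 13.37 and 13.85 TPM in WT and at 17.11, 15.92 and 11.18 TPM in *Ltf*-KO. The WT libraries lay close together, with a coefficient of variation of 3.36%, and the *Ltf*-KO libraries were spread on both sides of them, with one of 21.3%. Its log2 fold change was 0.11 (95% confidence interval -0.25 to 0.46), and single libraries set it. Without *Ltf*-KO replicate 3 it was 0.28 (standard error 0.067, limma adjusted p = 0.984), and without *Ltf*-KO replicate 1 it was -0.0030.

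*Ereg*, which encodes epiregulin, a ligand of EGFR and ErbB4, was at 1.16, 0.99 and 1.28 TPM in WT and at 1.56, 1.49 and 1.25 TPM in *Ltf*-KO. It was thus close to the limit of 1 TPM, and *Ltf*-KO replicate 3 lay below WT replicate 3. The log2 fold change was 0.18 (95% confidence interval -0.17 to 0.54). *Ereg* and *Areg* are neighbours on chromosome 5, with 45952 bp and 0 annotated genes between them in GENCODE M21, and their levels were far apart, with a ratio of *Areg* to *Ereg* TPM of 8.94 to 13.5. Some exon bases of *Ereg* are shared with the antisense gene *Gm19610*, which was at 1.76 to 3.02 TPM, so the value of *Ereg* is uncertain.

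The other 8 ligand genes were low. *Nrg1*, which encodes the ErbB3 and ErbB4 ligand neuregulin-1, was at 2.63, 2.95 and 3.41 TPM in WT and at 2.54, 3.04 and 2.41 TPM in *Ltf*-KO, and *Tgfa* (TGF-α) was at 1.04 to 1.32 TPM. The name *Nrg1* occurred on 2 rows, and only the row with the higher mean was used here and in the sums below. *Egf* (0.36 to 1.14 TPM), *Btc* (0.43 to 0.91 TPM), *Nrg4* (0.62 to 1.28 TPM), *Epgn* (0.12 to 0.37 TPM) and *Nrg2* (0.17 to 0.54 TPM) had means under 1 TPM and were not tested. *Nrg3* was listed at 0 in 5 libraries and at 1.71 TPM in *Ltf*-KO replicate 2. Of the summed TPM of all 11 ligands, *Hbegf* held 60.9% to 66.05%, *Areg* 20.6% to 26.45% and *Ereg* 1.70% to 2.41%, so these 3 genes made up most of the ligand RNA in each library. The summed ligand level, 52.9 to 76.05 TPM, was above the summed receptor level of 24.2 to 28.5 TPM in every library.

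**Figure D3:**
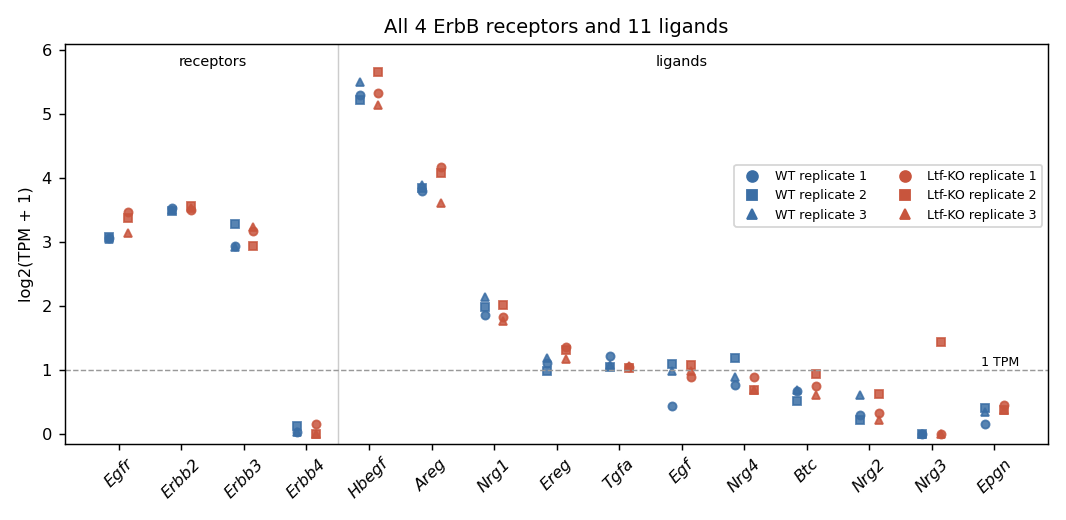
Level on the log2(TPM + 1) scale of the 4 ErbB receptors and 11 ligands, with 1 point per library, WT in blue and *Ltf*-KO in red, and a dashed line at 1 TPM. *Hbegf* (34.37 to 49.37 TPM) and *Areg* (11.18 to 17.11 TPM) stood above the other ligands, and of the receptors *Erbb4* alone was near 0.

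*Grb2*, the adaptor that brings SOS to phosphorylated receptors, was at 88.86, 82.54 and 87.82 TPM in WT, a mean of 86.4 ± 3.39 TPM (SD, n = 3). It was at 75.16, 76.78 and 78.03 TPM in *Ltf*-KO, a mean of 76.7 ± 1.44 TPM (SD, n = 3). The lowest WT library lay 4.51 TPM above the highest *Ltf*-KO library, and the ratio of *Ltf*-KO to WT was 0.887. The log2 fold change was -0.17 (standard error 0.043, limma adjusted p = 0.999), and dropping any single library kept it between -0.20 and -0.15. *Grb2* (ENSMUSG00000059923) spans 115644045 to 115708597 of chromosome 11 on GRCm38, minus strand.

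*Arrb2* encodes β-arrestin 2, which desensitizes G protein-coupled receptors, takes part in receptor endocytosis and scaffolds MAPK signaling. It was at 17.43, 19.07 and 19.66 TPM in WT, a mean of 18.7 ± 1.16 TPM (SD, n = 3), and at 16.05, 15.3 and 15.01 TPM in *Ltf*-KO, a mean of 15.5 ± 0.537 TPM (SD, n = 3). The groups were 1.38 TPM apart, with a ratio of *Ltf*-KO to WT of 0.826. The log2 fold change was -0.26 (standard error 0.063, limma adjusted p = 0.999) and stayed between -0.31 and -0.23 with one library left out. *Arrb2* (ENSMUSG00000060216) spans 70432635 to 70440828 of chromosome 11, plus strand. Leukocytes are rich in *Arrb2*, and the summed TPM of 6 leukocyte markers was 4.25 to 5.80 in WT and 3.21 to 4.90 in *Ltf*-KO. Only *Cd68* of these markers reached a mean of 1 TPM. The sum was mostly *Cd68*, so it does not give the share of these cells. *Cd68* was at 3.56, 3.58 and 3.98 TPM in WT and at 3.41, 3.52 and 3.12 TPM in *Ltf*-KO. Like *Arrb2*, it was lower in every *Ltf*-KO library, by a gap of 0.04 TPM, as were 3.73% of all tested genes. *Csf1r* was at 0.39, 0.05 and 0.06 TPM in WT and at 0.09, 0.08 and 0.09 TPM in *Ltf*-KO. The pan-leukocyte marker *Ptprc* was at 0 to 0.16 TPM, and *Ptprc*, *Adgre1*, *Itgam* and *S100a8* were at 0 in at least 1 library. *Itgam* encodes CD11b, which the sort gate names as absent but which is not among the listed stains. *Ptprc* encodes CD45, a listed stain that the gate does not name. The part of leukocytes in the *Arrb2* values was not tested.

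*Shc1*, the adaptor that couples receptors to GRB2, was at 58.19, 62.59 and 65.62 TPM in WT and at 58.76, 67.41 and 55.49 TPM in *Ltf*-KO. *Ltf*-KO replicates held both ends of this range, and the log2 fold change was -0.040 (95% confidence interval -0.24 to 0.16). *Sos1*, the exchange factor that loads Ras, was at 10.75, 10.86 and 10.18 TPM in WT and at 10.63, 9.86 and 10.88 TPM in *Ltf*-KO. Its log2 fold change was -0.018 (95% confidence interval -0.17 to 0.14), and the range of the *Ltf*-KO libraries enclosed that of the WT libraries.

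**Figure D4:**
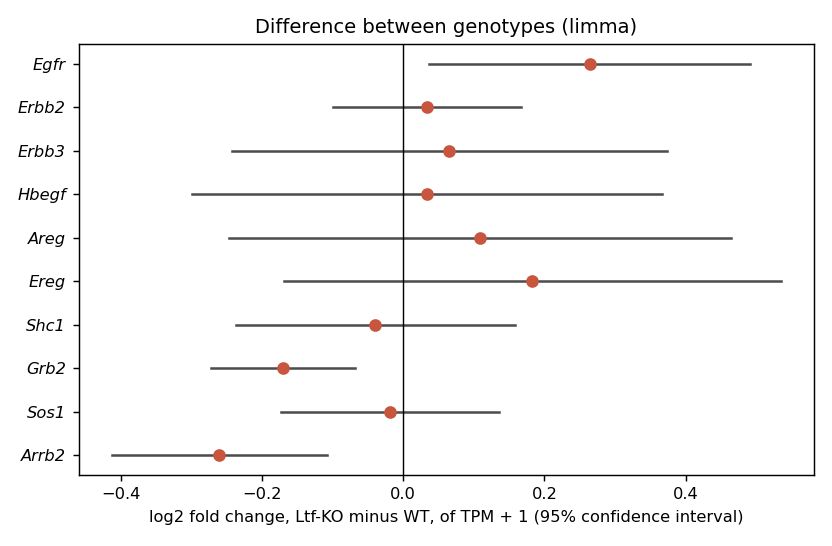
log2 fold change of TPM + 1, *Ltf*-KO minus WT, from limma for the 10 genes, with the 95% confidence interval as a line. The intervals, which are not adjusted for the 12956 genes tested, leave out 0 for *Egfr* (0.26), *Grb2* (-0.17) and *Arrb2* (-0.26) and hold 0 for the other 7 genes.

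The RNA of GRB2 was in excess over that of its SOS partners. The ratio of *Grb2* to *Sos1* TPM was 8.16 ± 0.521 (SD, n = 3) in WT and 7.34 ± 0.388 (SD, n = 3) in *Ltf*-KO, and with *Sos2* added to *Sos1* it was 3.01 to 4.18 over the 6 libraries. *Sos2*, the second SOS gene, was at 9.61 to 14.92 TPM, so both SOS genes were at like levels. By contrast *Shc1* held 94.96% to 97.04% of the summed TPM of the 4 SHC genes, with *Shc2* at 0.57 to 1.16 TPM, *Shc3* at 0.21 to 0.5 TPM and *Shc4* at 1.03 to 1.43 TPM. *Arrb2* held 88.8% to 96.1% of the TPM of both β-arrestin genes, with *Arrb1* at 0.7 to 2.44 TPM. The GRB2 relatives of blood cells, *Grap* and *Grap2*, were at 0.04 to 0.22 TPM and at 0 to 0.06 TPM.

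None of the genes around this core passed the test, as was so for all 12956 tested genes. Of 66 genes in 5 lists (other receptors and ligands, relatives of the adaptors, docking proteins and other adaptors, ligand shedding, and receptor restraint and endocytosis), 53 were tested, 0 had a limma adjusted p under 0.05 and 0 had an unadjusted p under 0.05. Over all tested genes 3.78% had an unadjusted p under 0.05. By direction, 31 of the 53 had a log2 fold change above 0 and 22 below, with a median of 0.015 against 0.011 over all tested genes. Of all 12956 tested genes 7220 were above 0 and 5736 below. Their median was -0.0011 with quantile normalization, so this lean depended on the scaling. With one library left out, 0 to 2 of the 53 had an unadjusted p under 0.05, against 456 to 611 of all 12956 tested genes. Nothing about these lists is read from counts so small.

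The negative regulator *Errfi1*, which encodes MIG6, an ERK-induced inhibitor of the EGFR kinase, had the highest mean of these lists, though *Cd9* was above it in WT replicate 2. It was at 341.59, 305.07 and 343.81 TPM in WT and at 356.75, 370.53 and 273 TPM in *Ltf*-KO, rank 426 of the 12956 tested genes. Its level was 34.7 to 47.3 times that of *Egfr*. The tetraspanin gene *Cd9*, whose product associates with membrane HB-EGF, was at 270.12 to 324.59 TPM. *Ptpn12*, a tyrosine phosphatase, was at 82.22 to 87.32 TPM.

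Of the ADAM metalloproteases, *Adam9* was at 52.92 to 57.59 TPM, *Adam10* at 39.66 to 44.27 TPM and *Adam17*, the main sheddase of HB-EGF and amphiregulin, at 32.22 to 35.21 TPM. For *Adam17* the genotypes differed by -0.049 in log2 (95% confidence interval -0.16 to 0.059). Among docking proteins and adaptors, *Grb10*, an adaptor that restrains insulin and IGF1 receptors, was at 87.1 to 106.67 TPM and *Crk* at 79.17 to 84.82 TPM. Of the 18 genes of that list 17 were tested, with 13 above 0 and 4 below 0 in log2 fold change. Over all 12956 tested genes 7220 were above 0 and 5736 below, and nothing is read from the count of the list. The gene left out, *Grb7*, was at 0 to 0.03 TPM.

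**Figure D5:**
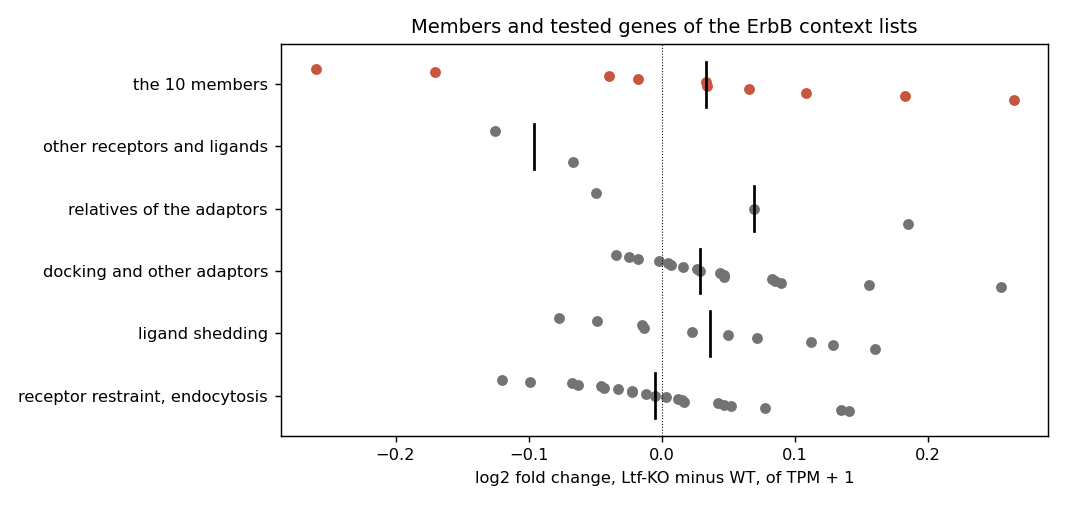
log2 fold change of TPM + 1, *Ltf*-KO minus WT, of the 10 genes in red and of the tested genes of 5 lists of their pathway in grey, with 1 point per gene and a bar at the median of each list. The 10 genes ran from -0.26 to 0.26 with a median of 0.034, and the 53 genes of the lists ran from -0.125 to 0.255.

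The libraries were not ordered alike for all 10 genes. *Ltf*-KO replicates 1 and 2 were the 2 highest libraries for *Egfr*, *Areg* and *Ereg*, an order found in 8.84% of all tested genes. WT replicate 3 and *Ltf*-KO replicate 2 were the 2 highest for *Hbegf* and *Shc1*, as in 10.6% of tested genes, and the same 2 libraries were the 2 lowest for *Erbb3* and *Sos1*, as in 8.40%. *Ltf*-KO replicate 3 was the lowest library for *Hbegf*, *Areg*, *Shc1* and *Arrb2*, as in 20.3%. These orders were picked after the values were seen, share the same 6 libraries and have no test.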

How the data were processed

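RNA of SCs grown for 4 days was sequenced in 3 WT and 3 *Ltf*-KO libraries. The authors deposited TPM values, normalized under what the methods call the manufacturer's protocol. The submitters' processing notes name GRCm39, and the aligner, the counting tool and the annotation release are not given in the sources used here. TPM keeps no depth, so precision was judged from replicates. Each column was matched to its sample by the sample description.

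limma 3.58.1 in R 4.3.3 (lmFit and eBayes with a variance trend) was fitted to log2(TPM + 1) for 12956 genes (23.4%) whose mean reached 1 TPM, with a pseudocount of 1. Two-sided p-values received the Benjamini-Hochberg adjustment over all of these genes (threshold 0.05). The fit was tested on simulated data. The 10 genes and all lists were chosen with earlier results of these data known. Of the context lists, all relatives of the 10 genes are named, and otherwise genes at an unadjusted p under 0.05 or, with none, the 2 of highest mean. The other genes named, *Adam10*, *Adam17* and *Grb7* among them, were picked after their values were seen. Of a repeated name the row with the highest mean was used. Positions were read from GENCODE M21 (GRCm38) by gene identifier, and promoter sequences from RefSeq on GRCm38.p6. Alternatives were a pseudocount of 0.1, no filter, a mean of at least 10 TPM, quantile normalization, median-of-ratios scaling, the replicate number as a block, and each library left out in turn. One list of cell type markers is not reported here.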

Additional observations from a re-analysis of the deposited data

How the results depend on the processing

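The 10 genes kept an adjusted p above 0.05 from limma in every alternative run, and none changed sign with another pseudocount, filter, scaling or block. With one library left out, log2 fold changes crossed 0 for *Hbegf* (-0.10 to 0.15), *Areg* (-0.0030 to 0.28), *Shc1* (-0.12 to 0.020) and *Sos1* (-0.045 to 0.020). *Grb2* and *Arrb2* had an unadjusted p under 0.05 in all 12 alternatives, and *Egfr* in 6 of its 11, but in only 1 of the 6 fits without one library. *Egfr*, *Erbb3* and *Ereg* could not be fitted under the filter of 10 TPM. Over all tested genes 0 passed an adjusted p of 0.05, and dropping single libraries gave 0 to 6 (6 without WT replicate 2). The number at an unadjusted p under 0.05 was 490, with 890 when no filter was set and 281 at the stricter filter of 10 TPM, since the number of tested genes differed, and 456 to 611 when single libraries were dropped. Of the 5 lists, 0 to 2 genes had an unadjusted p under 0.05 with one library left out. There were 2 without WT replicate 1 (*Eps8*, *Socs5*) and 2 without WT replicate 3 (*Gab2*, *Dok1*). There was 1 without *Ltf*-KO replicate 1 (*Rhbdf1*) and 1 without *Ltf*-KO replicate 2 (*Nck1*). All of them were named after their values were seen. The difference in receptor share, *Ltf*-KO minus WT, ranged over these fits from 2.65 to 5.65 percentage points for *Egfr*, from -3.98 to -1.42 for *Erbb2* and from -2.72 to 0.788 for *Erbb3*. Same-numbered libraries of the genotypes did not deviate together (correlations of -0.0413, -0.0582 and -0.0875 across genes, with 0 of 3 best matched to its own number). With 3 libraries per genotype this check cannot exclude a pairing of the samples or a shared batch. A fit that blocked on the replicate number gave 0 genes at an adjusted p and 380 at an unadjusted p under 0.05. No count-based test was run, since TPM holds no counts.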

Other observations

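The deposited annotation assigns 84 genes to the ErbB signaling pathway, of which 72 were tested and 9 are among the 10 genes above (all but *Arrb2*). Of the other 63 tested genes, 0 had a limma adjusted p under 0.05 and 3 had an unadjusted p under 0.05, a share of 4.76% against 3.78% over all tested genes. The 3 genes, named after their values were seen, were *Camk2g*, *Pak4* and *Mtor*. *Camk2g*, a calcium/calmodulin-dependent kinase gene, was at 47.53, 44.64 and 44.68 TPM in WT and at 51.5, 57.13 and 51.72 TPM in *Ltf*-KO, higher by 0.22 in log2 in *Ltf*-KO (limma adjusted p = 0.999) with no overlap between genotypes. *Pak4*, a serine/threonine kinase gene, was at 22.15, 19.36 and 19.32 TPM in WT and at 22.23, 22.91 and 23.37 TPM in *Ltf*-KO, apart by 0.08 TPM. *Mtor*, the growth-control kinase gene, was at 17.96, 22.54 and 19.25 TPM in WT and at 18.01, 14.61 and 16.75 TPM in *Ltf*-KO, with overlapping groups. None of the 3 passed the test.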
